A study of Homo sapiens with 12 samples.

Results

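PEG10 is a domesticated retrotransposon gene that is read in 2 ways. Ribosomes that stop at the end of the first reading frame make gag, which holds a capsid-like region and a nucleocapsid with a CCHC zinc finger. Ribosomes that slip back by 1 base near the end of gag read on into *pol*, which holds an aspartic protease, and make gag-pol. The comparison described here sets the 3 RNA-seq libraries of HEK293 cells transfected with PEG10 gag-pol against the 3 libraries of cells transfected with PEG10 gag, and so concerns the cells that received *pol* in addition to gag. These 6 libraries were chosen by their labels from the 12 libraries of the series, and the replicate number pairs 1 gag-pol library with 1 gag library. All 26485 genes of the count table were examined, of which 17176 had enough counts to be tested.

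HEK293 is an established human line from embryonic kidney that expresses many neuronal genes. Every library came from wild-type HEK293 cells that received 1 µg of plasmid and were harvested 48 hr later, and the 3 replicates were 3 independent passages. The other 6 libraries, used for reference, came from cells transfected with LifeAct-Dendra2, a fluorescent actin label that served as the control, or with the PEG10 nucleocapsid (NC) alone. All PEG10 constructs were overexpressed in transient transfection, and PEG10 counts sum the cells' own transcripts and those of the plasmid.

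The difference between the 2 reading paths lies in a short stretch of *PEG10* on chromosome 7 (94656325 to 94669695, forward strand, GRCh38, GENCODE release 44). The gag frame runs from 94663557 to 94664531 and holds 325 codons. Gag-pol is annotated as 2 coding segments, from 94663557 to 94664507 and from 94664510 to 94665679, which hold 707 codons in all. The annotation leaves out the 2 bases between the segments in place of a slip back by 1 base. Its segment ends therefore do not mark the slip, and its codon count may differ from that of the protein. The 87 bases of the genome around the slip, shown because they carry the step that separates gag-pol from gag, are given below with the slippery heptamer and the stop codon of gag in capitals. The heptamer occurs 1 time between the start of gag and the end of *pol*. The sequences of the transfected plasmids are not given in the sources used here.
PEG10 chr7:94664478-94664564, forward strand: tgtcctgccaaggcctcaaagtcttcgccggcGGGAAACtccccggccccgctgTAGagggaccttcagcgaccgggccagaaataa

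Library totals ran from 30625725 to 45316749 counts, and replicates of 1 construct differed by far more than counting noise. *PEG10* took 7.35%, 3.48% and 2.80% of all counts in gag-pol replicates 1, 2 and 3 and 5.93%, 3.78% and 6.10% in the gag libraries. The groups overlapped, and *PEG10* did not pass the test (log2 fold change -0.25 ± 0.38 (SE), adjusted p = 0.753). In the control libraries it took 0.0306% ± 0.00658 (SD, n = 3), and in the NC libraries 0.310% ± 0.0757. Of 7 HEK293 markers, *VIM*, a filament protein, was highest in the 6 libraries with 13227 to 23983 counts and *NEFM* lowest with 41 to 81. *PTPRC*, which defines leukocytes, had at most 1 count, and *CDH5* of endothelium and *TTR* of hepatocytes at most 9 and 2. Other markers of these types were present at low counts, such as *CD14* with 52 to 466, *ITGAM* with 58 to 110 and *CLDN5* with 20 to 91. Of fibroblast markers, *DCN* had at most 4 counts, but *COL1A1* had 778 to 1116 and *COL3A1* 19 to 167.

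One library stood apart in its gene content. A set of 17 genes had at least 100 counts in 1 library and over 10 times the next highest library, and all 17 had that library in common, gag replicate 2. They include genes of contractile and hormone proteins of heart muscle. *MYH6*, a cardiac myosin heavy chain, had 4864 counts there and at most 14 in any other library. *ACTC1*, cardiac actin, had 4742 against at most 33, and *TNNT2*, a cardiac troponin, 1609 against at most 8. Together the 17 genes took 17217 counts, 0.0453% of the library. None of the 17 was called between gag-pol and gag, and the part of this library in other results was not tested beyond the fits that leave it out. This set was chosen after the values were seen.

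At an adjusted p under 0.05 (edgeR's quasi-likelihood test with construct and replicate number as terms, Benjamini-Hochberg adjustment over all genes tested), 1109 genes differed between gag-pol and gag, 6.46% of those tested. Of these, 521 rose in gag-pol (3.03%) and 588 fell (3.42%), and "called" is used for them from here on. Differences were small for most: the median of the log2 fold changes was 0.40 for the genes that rose and -0.48 for those that fell. A difference of at least 2-fold was seen for 9 genes that rose and 94 that fell. All 1109 had the same direction in each of the 3 replicate numbers. The test that called them used these same pairs, so this follows largely from the selection and is not independent evidence. For 513 of them (46.3%) the 3 gag-pol values did not overlap the 3 gag values, against 12.7% of all genes tested. In bulk RNA, a change in the number of transfected or other cells and a change in RNA per cell cannot be told apart.

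These counts rest on the comparison within passages. Without the replicate number in the model, edgeR called 0 genes, with 917 at an unadjusted p under 0.05, and DESeq2 called 6. A fit without gag replicate 2 called 473 genes, 204 higher and 269 lower. Leaving out the 4 libraries of replicate number 1 left 12 calls, and 10 genes were called in every one of 15 fits that left out 1 library or 1 replicate number. Those 10 were *DPYSL4*, *SPON1* and *SDC3*, which rose, and *RWDD2B*, *H1F0*, *SNHG15*, *ZBTB48*, *RASSF1*, *CARD6* and *CPNE7*, which fell. The last 2 genes were named after this count was seen.

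**Figure D1:**
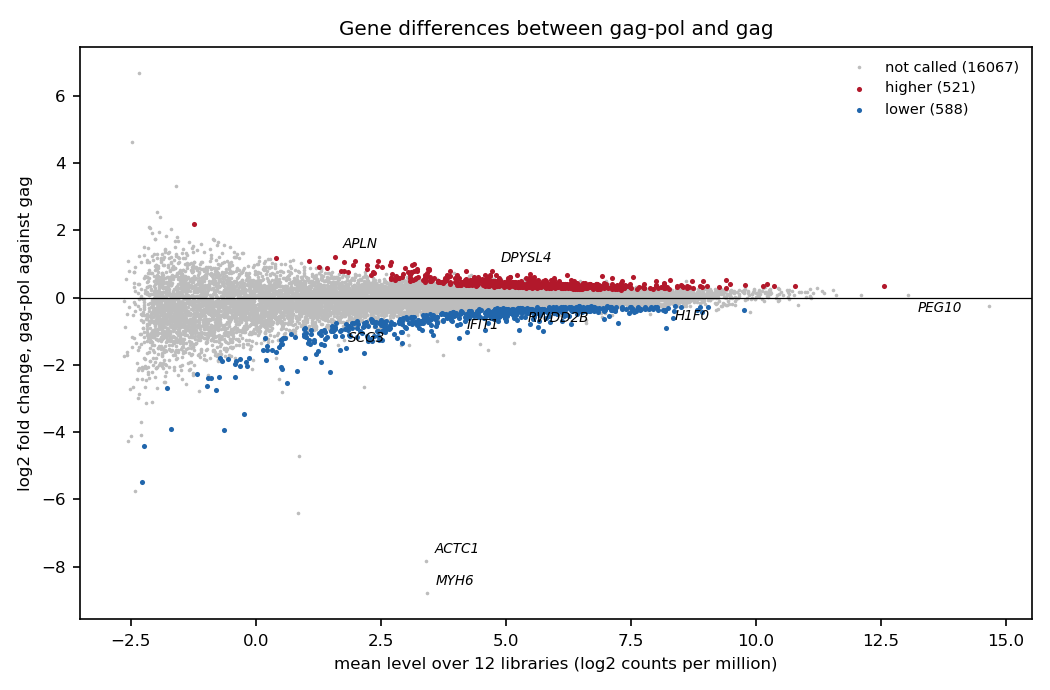
Each point is 1 of 17176 genes, with its mean level over 12 libraries on the x axis (log2 CPM) and its log2 fold change, gag-pol against gag, on the y axis. Genes that rose (521, red) and fell (588, blue) lie mostly within 1 log2 unit of 0. *MYH6* and *ACTC1*, which were high in gag replicate 2 alone, lie far below 0 and were not called.

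Among the genes with the strongest evidence of a rise, several belong to axon growth and the cell surface. *DPYSL4* (chromosome 10, 132186948 to 132205759), a collapsin response mediator that acts on the growth cone cytoskeleton, had normalized counts (counts scaled to a common library size) of 1377, 1441 and 975 in gag-pol replicates 1, 2 and 3. The gag libraries had 838, 962 and 455, so each gag-pol library lay above every gag library (log2 fold change 0.80 ± 0.12 (SE), adjusted p = 0.000997). *SPON1*, which encodes F-spondin, an extracellular protein of axon outgrowth, had 1318, 1926 and 1594 in gag-pol and 866, 1333 and 876 in gag (log2 fold change 0.67 ± 0.10 (SE), adjusted p = 0.0015). Only gag replicate 2, the highest of its group, reached the range of gag-pol. *SDC3*, a heparan sulfate proteoglycan of neurons, had 1615, 2324 and 1515 in gag-pol and 1228, 1702 and 786 in gag (log2 fold change 0.59 ± 0.10 (SE), adjusted p = 0.00277). Here too the groups overlapped through gag replicate 2, while every pair of the same number differed in the same direction. *PPDPF* and *DCAKD* complete the 5 rises with the smallest p (0.50, adjusted p = 0.0015, and 0.51, adjusted p = 0.00406, on the log2 scale).

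These rises differed in where the control libraries lay. *DPYSL4* had 850.1, 978 and 415 in control, close to gag: its log2 fold change against control was 0.82 (adjusted p = 0.000173) for gag-pol and 0.02 (adjusted p = 0.968) for gag, 2 comparisons that share the control libraries. *SPON1* likewise had 0.48 (adjusted p = 0.00463) for gag-pol against control and -0.19 (adjusted p = 0.427) for gag. For *PPDPF* it was gag that passed the test against control, with -0.07 (adjusted p = 0.604) for gag-pol against control and -0.56 (adjusted p = 0.000271) for gag.

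The falls with the smallest p were larger. *RWDD2B* (chromosome 21, 29004384 to 29019360) had 1332, 691 and 716 in gag-pol and 2603, 1382 and 1360.4 in gag (log2 fold change -0.97 ± 0.10 (SE), adjusted p = 1.14e-05). *H1F0* (chromosome 22, 37805229 to 37807432), which encodes the linker histone H1.0 of cells that have left the cycle, had 10642, 6206 and 7339 in gag-pol and 19417, 12535 and 13197 in gag (log2 fold change -0.91 ± 0.09 (SE), adjusted p = 1.14e-05). In both genes every gag-pol library lay below every gag library. *SNHG15*, a host gene of a small nucleolar RNA, had 2862, 1946 and 2204 in gag-pol and 5027, 3389.97 and 3681 in gag (log2 fold change -0.78 ± 0.09 (SE), adjusted p = 3.82e-05). *ZBTB48*, a telomere-binding zinc finger protein, and *RASSF1*, a tumour suppressor of the Hippo pathway, also fell without overlap (-0.70, adjusted p = 0.000263, and -0.80, adjusted p = 0.00033).

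Control sat in different places for these genes too. *RWDD2B* was -0.83 (adjusted p = 3.11e-05) for gag-pol against control and 0.13 (adjusted p = 0.609) for gag against control. *H1F0* differed from control in both directions, at -0.43 (adjusted p = 0.005) for gag-pol and 0.48 (adjusted p = 0.00825) for gag. *SNHG15* had -0.32 (adjusted p = 0.0202) and 0.46 (adjusted p = 0.00718) in the same order.

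**Figure D2:**
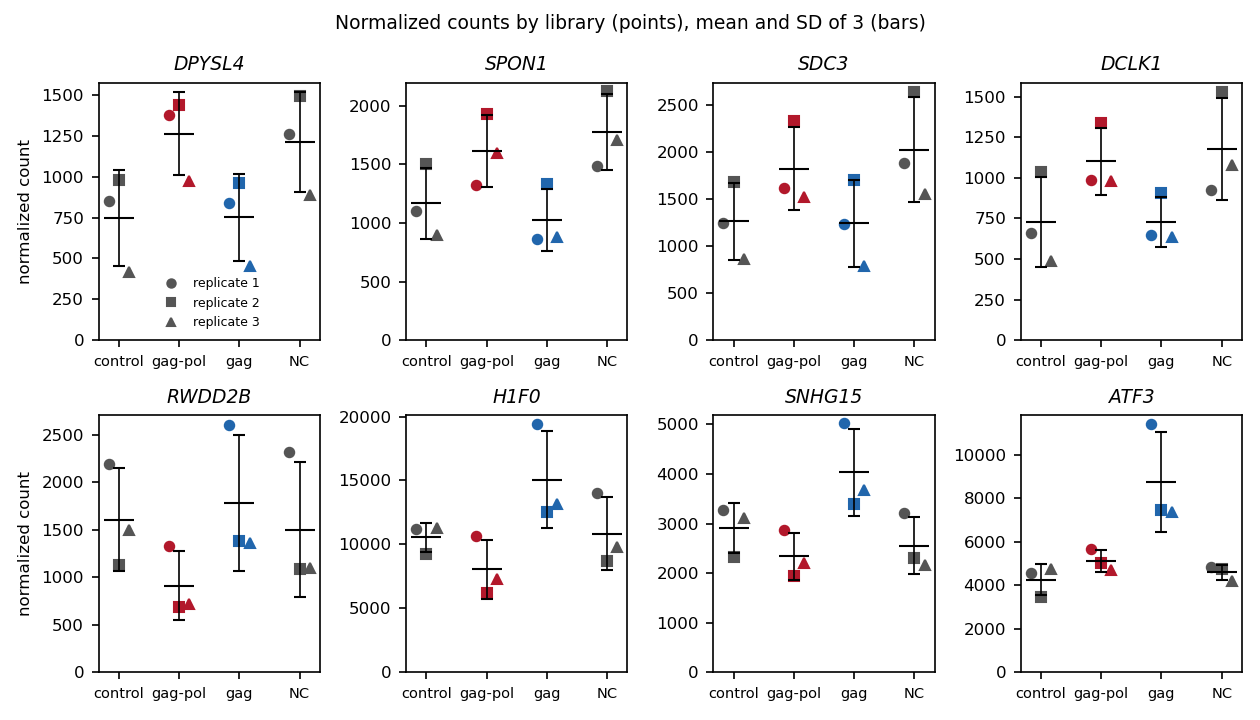
Normalized counts (y axis, from 0) of 8 genes in the 4 constructs (x axis), with circles, squares and triangles for replicates 1, 2 and 3 and bars for the mean and SD of 3 libraries. In *DPYSL4*, *DCLK1*, *RWDD2B*, *H1F0*, *SNHG15* and *ATF3* the 3 gag-pol points (red) do not overlap the 3 gag points (blue), and in *SPON1* and *SDC3* they do.

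Some of the genes that steer axons rose. The study named 6 axon extension genes on these same libraries, so their direction here is not independent evidence, and all 6 rose in gag-pol against gag. *DCLK1*, a kinase that binds microtubules, had 984, 1339 and 980.1 in gag-pol and 644, 907 and 636 in gag, with no overlap (log2 fold change 0.60 ± 0.12 (SE), adjusted p = 0.00565). *SLIT3*, a secreted guidance ligand, had 297, 518 and 366 and 164, 316 and 218 (log2 fold change 0.77 ± 0.15 (SE), adjusted p = 0.00508). *SEMA5B*, a semaphorin, had 269.9, 617 and 369.7 and 143, 383 and 207 (log2 fold change 0.80 ± 0.19 (SE), adjusted p = 0.0146). In both guidance genes the groups overlapped, since replicate 2 was highest in each construct. *PLXNA4*, a semaphorin receptor, *WNT3A*, a Wnt ligand, and *C9orf72* rose by 0.59, 0.54 and 0.61 on the log2 scale (adjusted p = 0.0323, 0.0265 and 0.0275).

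Of 63 axon guidance ligands and receptors tested, 10 rose (15.9%, against 3.03% of all genes tested) and 0 fell. Their median log2 fold change was 0.15, against -0.01 for all genes, and 51 of the 63 had a positive value. The median was 0.14, 0.18 and 0.16 within replicates 1, 2 and 3. The 10 rises include *SLIT3*, *SEMA5B* and *PLXNA4*, named by the study on these same libraries, so the share of rises is not independent evidence. Among the receptors, *PLXNC1* rose by 0.83, *PLXND1* by 0.35 and *UNC5B* by 0.27 on the log2 scale. Among the ligands, *SEMA4F* rose by 0.50, *SLIT1* by 0.37 and *EFNB1*, an ephrin, by 0.33. In fits without gag-pol replicate 3 or gag replicate 1, the number that rose was 2 and 1, and without gag replicate 2 it was 5. In the comparisons with control, which share their control libraries, 10 of the 63 were higher and 2 lower in gag-pol, and 0 were called in gag. Of all 17176 genes tested, 941 were higher and 1001 lower in gag-pol, and 120 and 66 in gag. With so few calls in gag, 0 among 63 genes says little about this list.

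Neuronal cytoskeleton genes had the highest share of rises of any list of 15 or more genes. Of 24 tested, 8 rose (33.3%, against 3.03% of all genes) and 0 fell, with a median log2 fold change of 0.23. *DCLK1*, 1 of these 8, was named by the study on these same libraries. *MAP6*, which stabilizes cold-resistant microtubules, had 417, 724 and 441 in gag-pol and 247, 463 and 201 in gag (log2 fold change 0.85 ± 0.16 (SE), adjusted p = 0.00508). *NEFL*, the neurofilament light chain, had 8128, 8887 and 6661 and 5959, 6188 and 3611, with no overlap (log2 fold change 0.63 ± 0.12 (SE), adjusted p = 0.00866). The collapsin response mediators *DPYSL2* and *DPYSL3* rose by 0.40 and 0.37, the stathmin *STMN3* by 0.36 and the tubulin *TUBB2B* by 0.31 on the log2 scale. The other 16 members did not pass the test.

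Wnt genes followed a similar course. Of 43 Wnt ligands, receptors and targets tested, 8 rose (18.6%, against 3.03% of all genes) and 0 fell. The median log2 fold change of the 43 was 0.16, and 35 had a positive value. *WNT3A*, 1 of these 8, was named by the study on these same libraries. The ligands *WNT4* and *WNT10B* rose by 0.86 and 0.46, and the receptor *FZD8* by 0.38 on the log2 scale. *SFRP5* and *SFRP1*, secreted proteins that bind Wnt ligands, rose by 0.86 and 0.61, and the nuclear effectors *LEF1* and *TCF7* by 0.34 and 0.35. *SFRP1* had 1199, 1619 and 1302 in gag-pol and 866, 1174 and 718 in gag, with no overlap. Without gag replicate 1, 0 of these genes were called.

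The largest rises among genes with a mean level of at least 1 log2 CPM were near 2-fold. *APLN*, the ligand of the apelin receptor, had 195, 156 and 98.9 in gag-pol and 106, 90.2 and 20.6 in gag (log2 fold change 1.21 ± 0.26 (SE), adjusted p = 0.00896). *NOS1*, neuronal nitric oxide synthase, had 233, 489.7 and 239 and 126, 307 and 74.1 (log2 fold change 1.05 ± 0.20 (SE), adjusted p = 0.00542). Both overlapped between groups, and replicate 3 was the lowest library of gag in each. *ADCYAP1R1*, the receptor of the neuropeptide PACAP, had 228, 426 and 220.1 in gag-pol and 140.2, 199.9 and 83.4 in gag, without overlap (log2 fold change 1.08 ± 0.24 (SE), adjusted p = 0.0121). Other genes of this group were *AK5* (1.08), an adenylate kinase, *G0S2* (1.05), an inhibitor of fat breakdown, *IGSF21* (1.00), *UTF1* (0.98), a factor of undifferentiated cells, *SMIM10L2A* (0.97), *LINC00950* (0.96), *GRM4* (0.96), a metabotropic glutamate receptor, *SNCB* (0.93), beta-synuclein, and *TSPAN2* (0.92), all as log2 fold changes. *UTF1* and *SNCB* were also higher in gag-pol than in control, at 1.13 (adjusted p = 0.000911) and 1.04 (adjusted p = 0.00465).

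The largest falls among genes above the same limit, applied to the mean of the log2 CPM of the 12 libraries, passed 2-fold. Genes below it fell further, such as *HEPACAM2* (-3.93), *CPNE4* (-2.54) and *CPNE7* (-2.21), which were named after their values were seen. *ANKRD31* had 119, 62.4 and 33.5 in gag-pol and 387, 172 and 122 in gag, without overlap (log2 fold change -1.65 ± 0.27 (SE), adjusted p = 0.00333). *SCG3* and *CHGB* encode granins, proteins of secretory granules, and fell by -1.56 and -1.25, where the negative sign gives the direction on the log2 scale. *SCG3* had 106, 31.2 and 20.6 in gag-pol and 266, 96.0 and 78.2 in gag, with replicate 1 highest in both. *NPR3*, a clearance receptor for natriuretic peptides, had 89.6, 78.0 and 68.8 in gag-pol and 166, 171 and 254 in gag, without overlap (log2 fold change -1.28 ± 0.23 (SE), adjusted p = 0.00487). *LTA*, a cytokine of the tumour necrosis factor family, and *CD14*, a co-receptor for bacterial lipopolysaccharide, changed by -1.50 and -1.29. *CD14* had 66.5, 50.7 and 156 in gag-pol and 117, 129 and 479.5 in gag. *CD14* is the 1 member called of 4 tested leukocyte markers, whose summed level ran from 173 to 264 normalized counts in gag-pol and from 269.5 to 684 in gag, and their part in other results was not tested.

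The remaining large falls were *ACTA1* (-1.26), skeletal muscle actin, *UNC79* (-1.24), a partner of a sodium leak channel, *IQCH* (-1.24), *WDR78* (-1.36), *LOC100272217* (-1.37) and *DNAH17-AS1* (-1.41). *ACTA1* had 151, 83.9 and 154 in gag-pol and 222, 285 and 397 in gag, so it was lower in gag-pol in all 3 pairs. Over the 15 fits without 1 library or 1 replicate number, its log2 fold change ran from -1.59 to -0.87, and the call was kept in 12. Those fits include 1 without gag replicate 2, the library with heart muscle genes. The part of that library was not tested further. *DNAH17-AS1* stood above control in gag, at 1.78 (adjusted p = 0.00035), with 0.37 (adjusted p = 0.371) for gag-pol. It lies antisense to *DNAH17*, and as the strand setting of the counting is not given, reads of the 2 genes cannot be told apart.

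Histone genes had the most negative median of the lists with 15 or more tested genes. Replication-dependent histone genes supply the core and linker histones of S phase, and most of their transcripts lack a poly(A) tail, so poly(A) libraries capture them poorly. Of 43 tested, 12 fell in gag-pol against gag (27.9%, against 3.42% of all genes) and 0 rose, and 40 had a negative value. The median log2 fold change was -0.81, and it was -1.19, -0.69 and -0.26 within replicates 1, 2 and 3. *HIST1H4E* had 73.5, 28.3 and 25.8 in gag-pol and 236, 105 and 92.6 in gag, without overlap (log2 fold change -1.79 ± 0.30 (SE), adjusted p = 0.00283). *HIST1H2AH* had 22.2, 11.7 and 11.2 and 87.0, 39.2 and 36.0, and *HIST1H4B* 22.2, 7.80 and 3.44 and 103, 30.4 and 38.1 (-1.80 and -2.36). These are low counts of near-identical copies, and how reads that match several copies were assigned is not given.

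The linker histone gene *HIST1H1D* fell by -1.84 and *HIST1H1E* by -1.59 as signed log2 fold changes. Against control, gag had the higher level: the median log2 fold change of the 43 genes was 0.54 for gag, with 4 higher and 0 lower. For gag-pol it was -0.05, with 0 higher and 3 lower. Of all 17176 genes tested, 120 were higher and 66 lower in gag, and 941 and 1001 in gag-pol. Of 44 DNA replication genes, which act in the same phase of the cycle, 2 rose (*TYMS*, 0.32, and *POLD2*, 0.26) and 0 fell. That is 4.55%, against 3.03% of all genes, with a median of 0.006. Of 36 mitosis genes, 3 rose (*HMMR*, *CDK1* and *UBE2C*, by 0.31, 0.30 and 0.28) and 0 fell. These 3 are 8.33%, and 31 of the 36 had a positive value (median 0.14). The part of the cell cycle in the histone difference was not tested. Without gag replicate 1 only 1 histone gene was called, and without gag replicate 2 there were 6.

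By number, zinc finger genes gave more falls than any other list, but far more of them were tested. By share, some lists had more falls, such as replication-dependent histones (27.9%) and small nucleolar RNA host genes (23.1%), and others had fewer. The symbols that start with ZNF, most of which encode DNA-binding proteins with repeated C2H2 fingers, gave 494 tested genes. Of these, 52 fell (10.5%, against 3.42% of all genes) and 1 rose (*ZNF449*, 0.42), and 372 had a negative value. Their median log2 fold change was -0.17, and it was -0.24, -0.10 and -0.13 within the 3 replicates. *ZNF34* had 348, 304 and 349 in gag-pol and 648, 399.9 and 820.1 in gag, without overlap (log2 fold change -0.85 ± 0.15 (SE), adjusted p = 0.00471). *ZNF79* had 355, 201 and 187 and 727, 312 and 369 (log2 fold change -0.89 ± 0.20 (SE), adjusted p = 0.0121), where gag replicate 2 lay within the range of gag-pol. *ZNF596* and *ZNF705E* fell by -0.79 and -1.89 on the signed log2 scale, the latter at 52.0 normalized counts or fewer in every library.

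Chromosome 19, which carries large clusters of zinc finger genes, held 1241 tested genes, of which 75 fell (6.04%) and 28 rose. Of the 250 zinc finger genes among them, 30 fell. Set beside control, the median of the 494 genes was 0.16 in gag, with 13 higher and 0 lower. In gag-pol it was -0.01, with 20 higher and 30 lower. Of all 17176 genes tested, 120 were higher and 66 lower in gag, and 941 and 1001 in gag-pol. The gag-pol counts of this list are close to the shares of all genes. The number that fell against gag was 23 without gag replicate 2 and 3 without gag replicate 1.

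**Figure D3:**
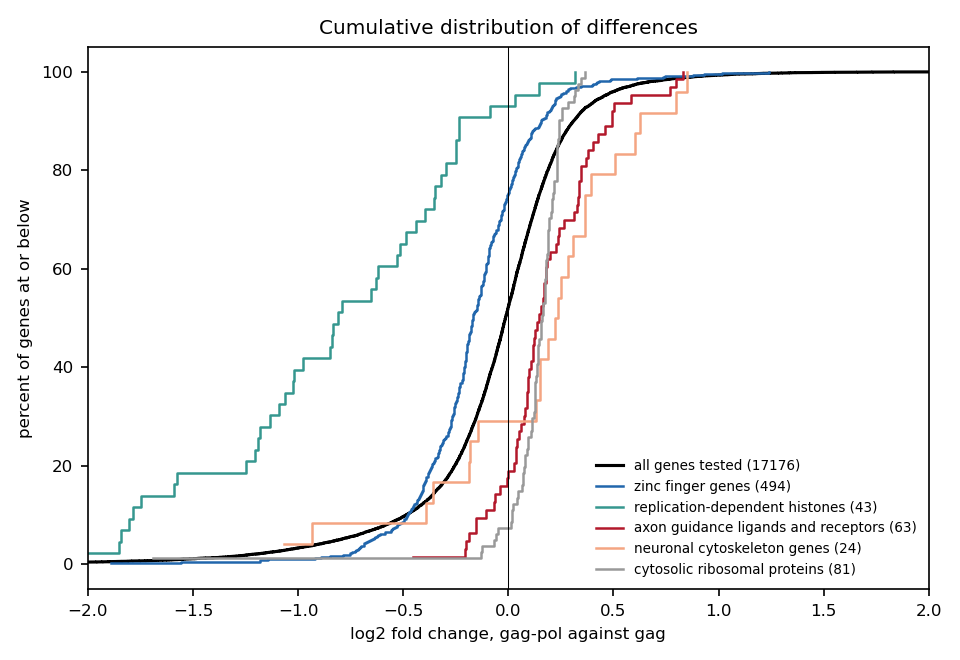
Percent of genes (y axis) at or below each log2 fold change, gag-pol against gag (x axis, -2 to 2), for all 17176 genes and 5 lists. Replication-dependent histones (median -0.81) and zinc finger genes (median -0.17) lie to the left of all genes, and axon guidance (0.15) and neuronal cytoskeleton genes (0.23) to the right.

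Stress pathway genes moved in both directions. ATF4 is a transcription factor that raises amino acid and stress genes when translation initiation is slowed. Of 25 ATF4 target genes tested, 5 fell (20.0%, against 3.42% of all genes) and 2 rose (8%, against 3.03%). The median was -0.04. *ATF3*, a repressor of the same family, had 5658, 5024 and 4684 in gag-pol and 11404, 7475 and 7369 in gag (log2 fold change -0.75 ± 0.12 (SE), adjusted p = 0.00508). *DDIT3*, which encodes CHOP, had 1399.9, 1418 and 1366 in gag-pol and 2259.5, 2049 and 2177 in gag (log2 fold change -0.63 ± 0.09 (SE), adjusted p = 0.000473). Neither gene overlapped between groups. *DDIT3* was also 1 of the 6 genes that DESeq2 called without the replicate number.

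*CHAC1*, which degrades glutathione, had 1006, 659 and 359 in gag-pol and 2372, 1261 and 543 in gag, with a wide spread in gag (log2 fold change -0.96 ± 0.20 (SE), adjusted p = 0.0189). *NUPR1*, a stress-induced chromatin protein, and *SLC3A2*, a subunit of amino acid exchangers, fell by -0.76 and -0.60 on the signed scale. The 2 that rose, *MTHFD2* and *PHGDH*, are enzymes of one-carbon and serine synthesis (0.36 and 0.30). For *ATF3* the level of gag stood above control, at 1.02 (adjusted p = 0.000771), and that of gag-pol was 0.27 (adjusted p = 0.176). *DDIT3* had 0.39 (adjusted p = 0.0229) for gag and -0.24 (adjusted p = 0.069) for gag-pol.

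Of 26 p53 target genes, 4 fell (15.4%, against 3.42% of all genes) and 1 rose (3.85%, near the 3.03% of all genes). *CDKN1A*, the p21 inhibitor of the cell cycle, had 2603, 3472 and 4422 in gag-pol and 3626, 4037 and 6049 in gag (log2 fold change -0.39 ± 0.09 (SE), adjusted p = 0.017). *PMAIP1* and *GADD45A* changed by -0.40 and -0.35. All 3 were higher in gag than in control, at 0.55 (adjusted p = 0.00309), 0.58 (adjusted p = 0.00309) and 0.72 (adjusted p = 0.000608). In gag-pol the same genes had 0.17 (adjusted p = 0.254), 0.17 (adjusted p = 0.248) and 0.36 (adjusted p = 0.023) against control. Among 25 immediate early genes, of which 17 had a negative value, only *ATF3* was called, but 10 were lower in a fit of only the gag-pol and gag libraries and 7 without control replicate 3. Of 17 genes of ERK feedback 0 were, with *PHLDA1* closest (0.43, adjusted p = 0.095).

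Genes of antiviral defence leaned to lower levels. Of 37 interferon-stimulated genes tested, 4 fell (10.8%) and 1 rose, with a median of -0.17 and 29 negative values. *IFIT1*, which binds foreign RNA ends, had 428, 265 and 426 in gag-pol and 844, 559.6 and 1203 in gag, without overlap (log2 fold change -1.19 ± 0.19 (SE), adjusted p = 0.00508). *DDX58*, the RNA sensor RIG-I, had 304, 215 and 287 and 526, 399 and 696, also without overlap (log2 fold change -0.99 ± 0.17 (SE), adjusted p = 0.00358). *IFI44* and *IRF9* fell by -2.11 and -0.69 on the signed scale, *IFI44* at 105 normalized counts or fewer in these libraries. *BST2*, which tethers budding virus particles to the cell, went the other way, with 222, 407 and 421 in gag-pol and 149, 280.3 and 216 in gag (log2 fold change 0.71 ± 0.17 (SE), adjusted p = 0.0135). Of 19 NF-kB targets tested 3 fell (15.8%, against 3.42% of all genes). Among them was the chemokine gene *CCL2*, at 12.1, 5.85 and 119.5 in gag-pol and 31.4, 72.5 and 305 in gag (log2 fold change -1.92 ± 0.35 (SE), adjusted p = 0.00501), with replicate 3 highest in both groups.

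The promoters of 3 of these genes are given because the genes belong to the stress and antiviral lists, whose factors read known letters. They are the 250 bases before the RefSeq start (GRCh38.p14), with matches on either strand in capitals. For *CHAC1* the letters are TGATGNAA, the core read by ATF4 with C/EBP partners, found 202 bases upstream of the start. For *IFIT1* and *BST2* they are TTTC, any 2 bases and TTTC again, the core of the interferon-stimulated response element, with matches at 94 and 107 bases in *IFIT1* and at 115 and 121 bases in *BST2*, where the 2 overlap. Of all 35116 promoters in the RefSeq table, 3.14% hold the first motif and 3.02% the second. *IFIT1* fell and *BST2* rose, and both hold matches.
CHAC1 chr15:40953221-40953470, forward strand: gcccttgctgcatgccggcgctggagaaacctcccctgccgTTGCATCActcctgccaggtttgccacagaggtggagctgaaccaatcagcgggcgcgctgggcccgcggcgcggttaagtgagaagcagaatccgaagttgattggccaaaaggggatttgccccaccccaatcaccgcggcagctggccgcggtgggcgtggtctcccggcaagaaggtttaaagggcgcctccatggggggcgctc
IFIT1 chr10:89392373-89392622, forward strand: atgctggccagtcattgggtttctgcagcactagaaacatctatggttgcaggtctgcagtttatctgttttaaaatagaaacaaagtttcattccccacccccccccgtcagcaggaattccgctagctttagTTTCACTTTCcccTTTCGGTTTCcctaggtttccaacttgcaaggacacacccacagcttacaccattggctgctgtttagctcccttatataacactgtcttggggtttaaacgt
BST2 chr19:17405631-17405880, reverse strand: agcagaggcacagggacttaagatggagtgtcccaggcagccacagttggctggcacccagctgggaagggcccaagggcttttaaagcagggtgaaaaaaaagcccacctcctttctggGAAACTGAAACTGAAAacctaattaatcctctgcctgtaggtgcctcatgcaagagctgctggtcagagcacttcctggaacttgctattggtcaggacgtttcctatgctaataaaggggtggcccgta

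Protein folding genes did not move as a group. Of 23 heat shock genes, 2 rose and 2 fell (8.70% each, against 3.03% and 3.42% of all genes). The mitochondrial chaperonin *HSPD1* and the collagen chaperone *SERPINH1* rose by 0.32 and 0.37. *HSPB8* and *CRYAB*, small heat shock proteins, fell. Their calls were kept in 8 and 10 of 15 fits without 1 library or replicate number. *CRYAB* had 6.04, 9.76 and 1.72 in gag-pol and 16.9, 208 and 23.7 in gag, and without gag replicate 2, the library with heart muscle genes, its log2 fold change was -1.87 (adjusted p = 0.212). It was lower in gag-pol in all 3 pairs. The call was also lost without gag-pol replicate 2 or 3. Of 21 genes of the endoplasmic reticulum unfolded protein response, 3 chaperone genes rose (*HSP90B1*, *PDIA6* and *PDIA4*, by 0.27, 0.29 and 0.25). Those 3 are 14.3% of the list, against 3.03% of all genes. *XBP1*, a transcription factor of that response, fell, from 9664, 6967 and 7118 in gag to 5889, 5705 and 5857 in gag-pol (log2 fold change -0.43 ± 0.09 (SE), adjusted p = 0.00902).

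Few non-coding RNA genes rose. Of 1249 long non-coding RNA genes tested, 3 rose (0.240%, against 3.03% of all genes) and 33 fell (2.64%, against 3.42%), and their median log2 fold change was -0.16. Of 26 small nucleolar RNA host genes, 6 fell (23.1%) and 0 rose, though the median of the list was -0.04. *SNHG17* had 5512, 3460.3 and 3392 in gag-pol and 7656, 5304 and 5999 in gag (log2 fold change -0.63 ± 0.11 (SE), adjusted p = 0.00508), and *SNHG1* and *SNHG12* fell by -0.30 and -0.29 on the signed scale. Small nucleolar RNAs themselves, a list chosen after the values were seen, had 0 rises and 3 falls among 164 tested (1.83%, against 3.42% of all genes). Their median was -0.28, and it ran from -0.39 to -0.02 over 11 other ways of fitting. *SNORD68* had 102, 96.6 and 110.04 in gag-pol and 267, 193 and 225 in gag, without overlap (log2 fold change -1.14 ± 0.19 (SE), adjusted p = 0.0026).

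Genes of motile cilia, a list also chosen after the values were seen, had 8 falls and 0 rises among 67 tested. The falls are 11.9%, against 3.42% of all genes, and the median was -0.34. *WDR78*, an axonemal dynein intermediate chain, had 196, 100.5 and 95.4 in gag-pol and 528, 224 and 267 in gag, without overlap (log2 fold change -1.36 ± 0.21 (SE), adjusted p = 0.00225). *DNAH7*, a dynein heavy chain, had 96.7, 71.2 and 41.3 and 199, 108 and 157 (log2 fold change -1.15 ± 0.26 (SE), adjusted p = 0.0101). *CFAP43* and *CFAP53* fell by -0.99 and -0.88 on the signed log2 scale. Against control, 10 of the 67 were lower in gag-pol and 0 were called in gag. Of all 17176 genes tested, 1001 were lower in gag-pol than in control. In gag 120 were higher and 66 lower, so 0 among 67 says little about this list.

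Glycolysis genes leaned to higher levels, and other metabolic and housekeeping lists had few calls. All 17 glycolysis enzymes had a positive log2 fold change, with a median of 0.21, and 3 rose (17.6%, against 3.03% of all genes). *PFKL*, a subunit of phosphofructokinase, had 12372, 13299 and 10564 in gag-pol and 9504, 10809 and 6903 in gag (log2 fold change 0.43 ± 0.08 (SE), adjusted p = 0.00487), and *LDHA* and *GPI* rose by 0.49 and 0.37. Of 81 cytosolic ribosomal protein genes, 3 rose (3.70%) and 0 fell, although 75 were positive (median 0.16). Oxidative phosphorylation genes gave 2 rises among 81, and proteasome genes 1 fall among 37. Hypoxia and sterol synthesis genes gave 0 calls among 23 and 24, where *ANGPTL4* and *FDFT1* came closest (-1.67, adjusted p = 0.0518, and 0.27, adjusted p = 0.0817). These counts depend on the libraries in the fit. With only the gag-pol and gag libraries, 48 ribosomal protein, 11 glycolysis and 6 sterol synthesis genes were called higher, and for hypoxia 4 were higher and 2 lower. Of 16 aminoacyl-tRNA synthetases 2 fell, *CARS* and *VARS*.

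Cell surface and matrix genes rose in small numbers. Of 46 cadherins and protocadherins, 5 rose (10.9%, against 3.03% of all genes) and 1 fell (2.17%, against 3.42%), *CELSR3* (-0.40). *CDH3* and *PCDH19* rose by 0.62 and 0.51. Of 41 collagen genes, 5 rose (12.2%) and 0 fell: *COL18A1*, *COL2A1*, *COL4A2*, *COL6A2* and *COL6A1*, by 0.41, 0.35, 0.32, 0.32 and 0.31. *COL2A1* had 5014, 7174 and 6968 in control, 5148, 7053 and 6943 in gag-pol and 3877, 5765 and 5412 in gag, and it was lower in gag than in control (-0.35 (adjusted p = 0.0105)). Of 22 targets of TGF-beta and BMP signals, the inhibitors of differentiation *ID3* and *ID2* fell (-0.58 and -0.33), and *HEY1* and *BMP7* rose (0.51 and 0.38).

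The remaining lists had few calls, where 3.03% of all genes tested rose and 3.42% fell. Of 20 NRF2 targets 2 fell, *HMOX1* and *ABCC2* (-0.73 and -0.63), and *TXN* rose (0.33). Of 37 splicing factors of the SR and hnRNP families, 3 SR genes fell (*SRSF10*, *SRSF6* and *SRSF3*, by -0.34, -0.29 and -0.27 on the signed scale) and *HNRNPA1* rose (0.33). Lysosome genes had a median of -0.03 over 43 tested, and among them *NEU1* and *SQSTM1* fell (-0.46 and -0.32) and *IDS* rose (0.43). *HOXA13* was the 1 call among 37 HOX genes (0.49). Of 17 glutamate receptor genes, a list chosen after the values were seen, *GRM4* and *GRIK3* rose (0.96 and 0.87) and *GRIK5* fell (-0.67). Endothelial and fibroblast markers gave 0 calls among 4 each, and *ALB* fell among 2 hepatocyte markers (-1.83) at 45.9 normalized counts or fewer in these libraries.

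**Figure D4:**
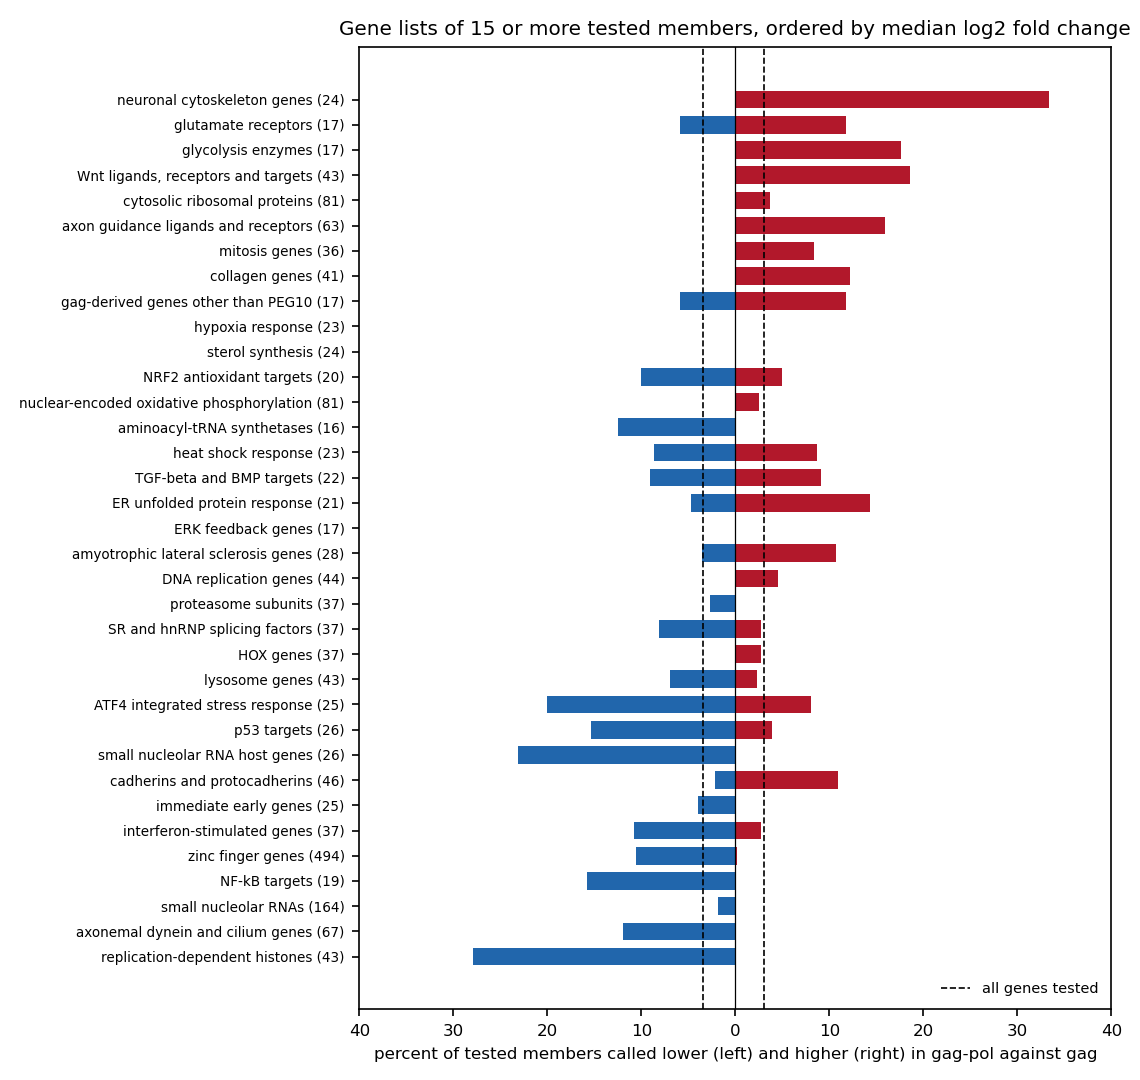
Percent of tested members that fell (blue, left) and rose (red, right) in gag-pol against gag for 35 lists of 15 or more tested members, with the number tested in brackets and lists ordered by median log2 fold change. Dashed lines give the 3.03% and 3.42% of all genes. Neuronal cytoskeleton genes reach 33.3% on the right and replication-dependent histones 27.9% on the left.

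Genes close to PEG10 in origin, place or disease were examined in the same way. Of 17 other gag-derived genes tested, *C22orf29* and *PNMA2* rose (0.44 and 0.31) and *ZCCHC12* fell (-0.46). Of 4 ubiquilin and *USP9X* genes tested, *UBQLN2*, which encodes the proteasome shuttle that lowers PEG10 gag-pol protein, rose slightly, with 3992, 3789 and 3068 in gag-pol and 3389.9, 3335 and 2413 in gag (log2 fold change 0.26 ± 0.08 (SE), adjusted p = 0.0485). This call was kept in 7 of 9 other ways of fitting with the replicate number and in 5 of 15 fits without 1 library or replicate number. Of 28 genes of amyotrophic lateral sclerosis, *C9orf72*, *HNRNPA1* and *UBQLN2* rose and *SQSTM1* fell. That is 10.7% and 3.57%, against 3.03% and 3.42% of all genes. Of 10 genes next to *PEG10* 0 were called. *TXNIP*, an arrestin that responds to glucose, had 1298, 1395 and 1081 in gag-pol and 1266, 1307 and 1000.2 in gag and did not pass the test (log2 fold change 0.08 ± 0.10 (SE), adjusted p = 0.682), while both constructs stood above control, at 1.07 (adjusted p = 3.62e-06) and 0.99 (adjusted p = 6.61e-06).

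The comparison of NC with control shares no library with gag-pol against gag. It called 1922 genes (11.2% of those tested), 1037 higher (6.04%) and 885 lower (5.15%). Of the 521 genes that rose in gag-pol against gag, 314 also rose in NC against control (60.3%), 1 fell and 206 were not called. Of the 588 that fell, 249 also fell in NC (42.3%), 2 rose and 337 were not called. The shared genes made up 30.3% of the rises and 28.1% of the falls of NC against control. These shares depended on the libraries in the fit. Without control replicate 3, 952 genes rose and 897 fell in gag-pol against gag. Of those, 111 and 81 were called in the same direction in NC against control. Of all 1109 called genes 1064 (95.9%) had the same direction in NC against control, against 72.4% of all genes tested. All 12 libraries share 1 fit and the same passage numbers, and the part of this in the likeness of the 2 comparisons was not tested.

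Single genes fell into both kinds. *DCLK1* was 0.72 (adjusted p = 0.00101) for NC against control, *DPYSL4* 0.74 (adjusted p = 0.000764), *MAP6* 0.74 (adjusted p = 0.0058) and *SDC3* 0.69 (adjusted p = 0.000395), each above 0 as for gag-pol against gag. Among the falls, *ZBTB48* was -0.58 (adjusted p = 0.000743), *IFIT1* -1.01 (adjusted p = 0.00645) and *CCL2* -1.80 (adjusted p = 0.00342). *RWDD2B*, *H1F0* and *DDIT3*, with some of the smallest p for gag-pol against gag, had -0.14 (adjusted p = 0.382), 0.00 (adjusted p = 0.987) and 0.14 (adjusted p = 0.301) for NC against control and did not pass the test there. Lists differed in the same way. All 6 axon extension genes, which the study named on these same libraries, were higher in NC than in control. Of 24 neuronal cytoskeleton genes, 9 were higher and 1 was lower. Of 43 replication-dependent histones, 1 was higher and 1 lower, with a median of -0.02. For zinc finger genes 38 of 494 were lower in NC and 5 higher.

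**Figure D5:**
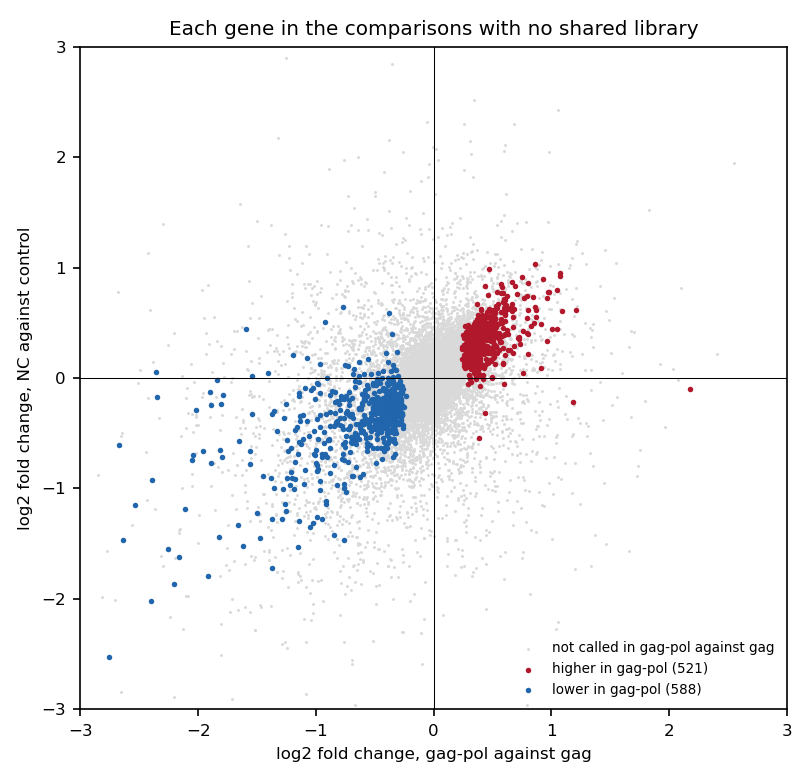
Log2 fold change of each gene for gag-pol against gag (x axis) and for NC against control (y axis), which share no library, with genes called in the first in red (521) and blue (588) and 30 genes outside the axes not drawn. Most red points lie above 0 and most blue points below 0 on the y axis, and some blue points spread along it.

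Genes that rose differed from the rest in GC content and level. They had a median transcript GC content of 52.9%, against 48.7% for genes that fell and 48.8% for all tested, and a median length of 4112 bases against 3461 and 3588. Their median level was 5.53 log2 CPM, against 4.79 for genes that fell and 4.39 for all tested. Among the 4199 genes with the lowest GC content (up to 42.2%) 1.52% rose and 4.14% fell, and among the 4198 next above them 2.98% rose and 2.81% fell. The 4198 above those had 3.86% that rose and 3.36% that fell, and the 4198 with the highest GC content had 4.002% and 3.48%. With the trend on GC content and length removed, 1008 of the 1109 calls were kept. Chromosome X held 554 tested genes, of which 43 rose (7.76%) and 12 fell (2.17%).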

How the data were processed

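RNA-seq of 12 libraries (4 constructs, 3 passages each) was analysed, and gag-pol was compared with gag. The authors aligned poly(A)-selected paired reads with STAR 2.7.3 to GRCh38.p13, used SAMtools 1.8 and counted with featureCounts. The deposited values are raw counts per gene. The annotation release, strand setting and treatment of multi-mapping reads are not given in the sources used here.

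Genes with at least 10 counts in enough libraries were kept (edgeR filterByExpr), and edgeR 4.0.16 (R 4.3.3) fitted all 12 libraries with TMM scaling, a robust quasi-likelihood test and terms for construct and replicate number, after the authors' use of harvest date and construct. Residual degrees of freedom were 6 and the biological coefficient of variation 10.7%. P-values were adjusted over all tested genes. Normalized counts bring every library to 1 shared size, the mean of the 12 sizes after TMM. Replicate numbers paired the samples: deviations from construct means correlated at 0.11 to 0.47 for the same number (18 pairs) and at -0.44 to 0.06 for others (36 pairs). Gene positions came from GENCODE (95.9% of symbols matched).

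Named genes were *PEG10*, *TXNIP*, the axon genes of the study, the 12 largest changes and 5 smallest p in each direction, and called members of the lists. The members and lists were chosen with earlier results of these data known. On simulated data, 71.4% of 98 genes changed by 1 log2 unit and 45.5% of 99 changed by 0.5 were called in this comparison (16975 genes), with 7 false calls. The simulated counts were drawn from the means and gene spreads of this same fit. They therefore cannot give the number of false calls among the real ones. DESeq2 1.42.0, other scalings and filters, and leaving out libraries were tried as alternatives. One gene of a list is not reported here.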

Additional observations from a re-analysis of the deposited data

How the results depend on the processing

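The calls in this comparison depended on the replicate number as a block, except 5 of the 1109 that DESeq2 kept without it. With no replicate block, edgeR called 0 genes in all (0 rises, 0 falls), with 917 under 0.05 before adjustment, so 0 axon guidance, Wnt, neuronal cytoskeleton, histone and zinc finger genes were called and 0 were shared in either direction with NC against control. The DESeq2 Wald test without the block, added after seeing the data, called 6 genes, of which 0 rose and 6 fell, with 1111 under 0.05 before adjustment, and 0 of those lists. With the block, a fit of only the 6 gag-pol and gag libraries called 2628 genes, 1355 higher and 1273 lower, with 16 axon guidance genes higher and 101 zinc finger genes lower. DESeq2 with the block called 795 genes higher. Across the 9 alternatives that kept the block and all libraries compared, 860 of the 1109 calls (77.5%) were kept in every one.

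Leaving out 1 library or 1 replicate number in turn gave 12 to 1849 changed genes, 3 to 952 higher and 9 to 897 lower. The counts ran from 3 to 365 for genes higher and from 5 to 231 for genes lower in both this comparison and NC against control. Without control replicate 3, which gave the most changed genes, these shared counts were 111 and 81. The list counts ran from 0 to 9 for Wnt, 0 to 15 for axon guidance, 1 to 10 for neuronal cytoskeleton, 0 to 14 for histone and 0 to 81 for zinc finger genes. Among gag-pol libraries, omitting replicate 1 gave 565 changed genes and omitting replicate 3 gave 130. Among gag libraries, the count became 122, 473 and 530 when replicates 1, 2 and 3 were omitted in turn. It was 1849 without control replicate 3, and dropping a whole passage gave 12 for number 1 and 633 for number 3. The cause was not tested. With 3 passages a construct, calls missed by a small margin cannot be read as equal levels.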
